A study of Homo sapiens with 12 samples.

Results

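The proteasome genes of 2 human glioma lines were measured with and without artesunate. Members were the protein-coding rows of the deposited gene table whose symbol begins with PSMA, PSMB, PSMC, PSMD, PSME, PSMF or PSMG and a digit, which gave 49 of 58302 genes. They comprise 8 alpha and 7 constitutive beta subunits of the 20S core, 4 immunoproteasome and thymoproteasome subunits, 6 ATPases and 11 other subunits of the 19S regulatory particle, 4 activators and 8 inhibitors and assembly factors. PSMC3IP, a meiotic recombination factor named for its binding to PSMC3, matched by its symbol only and is no subunit. The libraries are of polyadenylated RNA from the established lines U251 and U87, with 3 libraries in each of 4 groups. U251 cells received 180 µM artesunate, a semisynthetic artemisinin derivative, or control medium, and U87 cells received 24.08 µM artesunate or control medium. Treatment lasted 24 h and all samples carry the label day 9. Line and dose therefore cannot be told apart in any comparison of the artesunate effects. The control is labelled by its medium, a solvent control is not named, and the extraction text speaks of artemisinin where the labels speak of artesunate. The labels do not say whether replicates are separate cultures, so p-values measure the spread between libraries, which may be technical.

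The proteasome degrades proteins that carry ubiquitin chains. Its barrel-shaped 20S core holds alpha rings that gate entry and beta rings that carry the proteolytic sites, and the 19S particle recognises, unfolds and feeds substrates. Interferon gamma induces PSMB8, PSMB9 and PSMB10, which take the places of PSMB5, PSMB6 and PSMB7 in the immunoproteasome and shift its cleavage towards peptides that fit MHC class I. PSME1 and PSME2 form the PA28 alpha-beta cap, PSME3 forms the nuclear PA28 gamma cap, and PSME4 is the PA200 cap. When proteasome activity falls, the transcription factor NFE2L1 is known to raise subunit genes through antioxidant response elements.

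The promoters of 6 members are printed because their genes carried the main contrasts: PSMB9, PSME1 and PSME2 between the lines, PSMB10 and PSMD3 among the falls in U87, and PSMA3 among its rises. Each runs 5′ to 3′ over 250 bases before and 50 after the RefSeq start (GRCh38.p14). Capitals mark the motif matches named here for each promoter, from the motifs described with the promoter counts; other matches are left in lower case. In PSMB9 (chr6:32853942-32854241, plus strand) they mark a CCAAT box and an antioxidant response element, in PSMB10 (chr16:67936801-67937100, minus strand) an interferon-stimulated response element, in PSME1 (chr14:24135944-24136243, plus strand) and PSME2 (chr14:24146561-24146860, minus strand) an antioxidant and an interferon-stimulated response element each, in PSMA3 (chr14:58244593-58244892, plus strand) CCAAT boxes on both strands, and in PSMD3 (chr17:39980557-39980856, plus strand) antioxidant response elements and gamma-activated sites.
PSMB9: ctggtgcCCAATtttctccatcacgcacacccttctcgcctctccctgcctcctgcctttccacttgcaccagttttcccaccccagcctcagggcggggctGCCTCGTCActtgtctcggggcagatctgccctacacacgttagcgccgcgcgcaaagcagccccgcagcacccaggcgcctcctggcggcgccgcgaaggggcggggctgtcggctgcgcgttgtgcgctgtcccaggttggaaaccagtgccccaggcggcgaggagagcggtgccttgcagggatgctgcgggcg
PSMB10: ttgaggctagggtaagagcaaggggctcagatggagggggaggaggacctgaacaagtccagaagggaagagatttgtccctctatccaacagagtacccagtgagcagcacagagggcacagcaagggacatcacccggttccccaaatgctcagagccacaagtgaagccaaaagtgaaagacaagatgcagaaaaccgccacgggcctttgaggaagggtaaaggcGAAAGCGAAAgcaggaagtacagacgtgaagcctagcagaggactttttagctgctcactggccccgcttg
PSME1: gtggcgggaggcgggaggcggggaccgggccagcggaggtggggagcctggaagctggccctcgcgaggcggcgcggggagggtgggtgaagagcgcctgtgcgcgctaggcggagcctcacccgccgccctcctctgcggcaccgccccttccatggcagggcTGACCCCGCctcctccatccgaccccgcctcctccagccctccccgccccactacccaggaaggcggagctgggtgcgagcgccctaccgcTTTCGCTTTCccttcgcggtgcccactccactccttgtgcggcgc
PSME2: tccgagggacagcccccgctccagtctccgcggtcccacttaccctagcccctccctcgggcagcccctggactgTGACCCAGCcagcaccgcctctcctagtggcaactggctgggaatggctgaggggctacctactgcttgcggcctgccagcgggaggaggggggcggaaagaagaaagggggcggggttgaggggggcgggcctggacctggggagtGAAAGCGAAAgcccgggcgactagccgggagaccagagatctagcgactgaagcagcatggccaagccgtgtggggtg
PSMA3: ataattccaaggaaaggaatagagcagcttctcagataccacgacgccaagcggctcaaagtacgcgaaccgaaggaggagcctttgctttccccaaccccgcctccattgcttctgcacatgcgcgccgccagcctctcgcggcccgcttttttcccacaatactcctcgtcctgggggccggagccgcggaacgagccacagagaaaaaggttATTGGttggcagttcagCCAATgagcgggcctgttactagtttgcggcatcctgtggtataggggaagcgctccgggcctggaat
PSMD3: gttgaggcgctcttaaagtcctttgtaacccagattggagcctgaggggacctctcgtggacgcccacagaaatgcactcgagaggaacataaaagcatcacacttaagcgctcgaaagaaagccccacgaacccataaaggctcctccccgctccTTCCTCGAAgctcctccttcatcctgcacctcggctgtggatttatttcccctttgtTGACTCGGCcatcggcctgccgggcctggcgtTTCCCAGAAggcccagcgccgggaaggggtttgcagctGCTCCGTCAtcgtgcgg

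Library totals ran from 13631985 to 17314284 counts. Of the 49 members, 47 passed the filter on low counts; PSMA8, a testis form of an alpha subunit, had 2 counts in 1 library, and PSMB11, the thymoproteasome subunit, 1 count in 1 library. Libraries of 1 group correlated at 0.985 to 0.987 over all genes (Pearson), except those of U87 with artesunate, at 0.972 to 0.981. Glial and glioma markers differed between the lines: SOX2 had 0 counts in all U87 libraries, CHI3L1 had 0 in all U251 libraries, and GFAP averaged 67.8 CPM (counts scaled to the library total) in U251 controls against 1.04 in U87 controls. Of 7 leukocyte and microglia markers, AIF1 and CD3E had 0 counts in every library. Their summed level was 1.58 to 3.93 CPM in U251 controls, 4.08 to 6.68 in U251 with artesunate, 56.9 to 96.3 in U87 controls and 21.9 to 51.9 in U87 with artesunate, nearly all of it CD68 in U87. The part of these markers in the immunoproteasome values was not tested.

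Levels are given in FPKM (fragments scaled to transcript length and library size), which allows comparison between genes. By group means the most abundant class was the constitutive 20S beta subunits, narrowly so in U251. Its 7 members summed to 295 ± 15.1 FPKM (SD, n = 3) in U251 controls, 291 ± 5.2 in U251 with artesunate, 357 ± 18.2 in U87 controls and 420 ± 40.5 in U87 with artesunate. The 4 immunoproteasome and thymoproteasome subunits summed to 9.09 ± 0.696, 8.26 ± 0.862, 22.7 ± 2.38 and 13.1 ± 3.21 in the same order. The 4 activators summed to 35.5 ± 6.51, 24.9 ± 1.03, 51.9 ± 1.78 and 71.3 ± 2.97. The 6 ATPases of the 19S particle summed to 141 ± 4.57, 130 ± 4.44, 142 ± 6.94 and 122 ± 5.42. Its 11 other subunits summed to 286 ± 3.47, 285 ± 6.55, 284 ± 4.43 and 292 ± 11.1. In U251 control library 2 these 11 exceeded the constitutive beta subunits (283 against 277). Of the 47 members tested, 23 had their highest group mean in U87 with artesunate, 13 in U87 controls, 6 in U251 controls and 5 in U251 with artesunate. The shares over all genes were not counted, so these numbers have no background. The levels are also not corrected for transcript GC content.

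**Figure D1:**
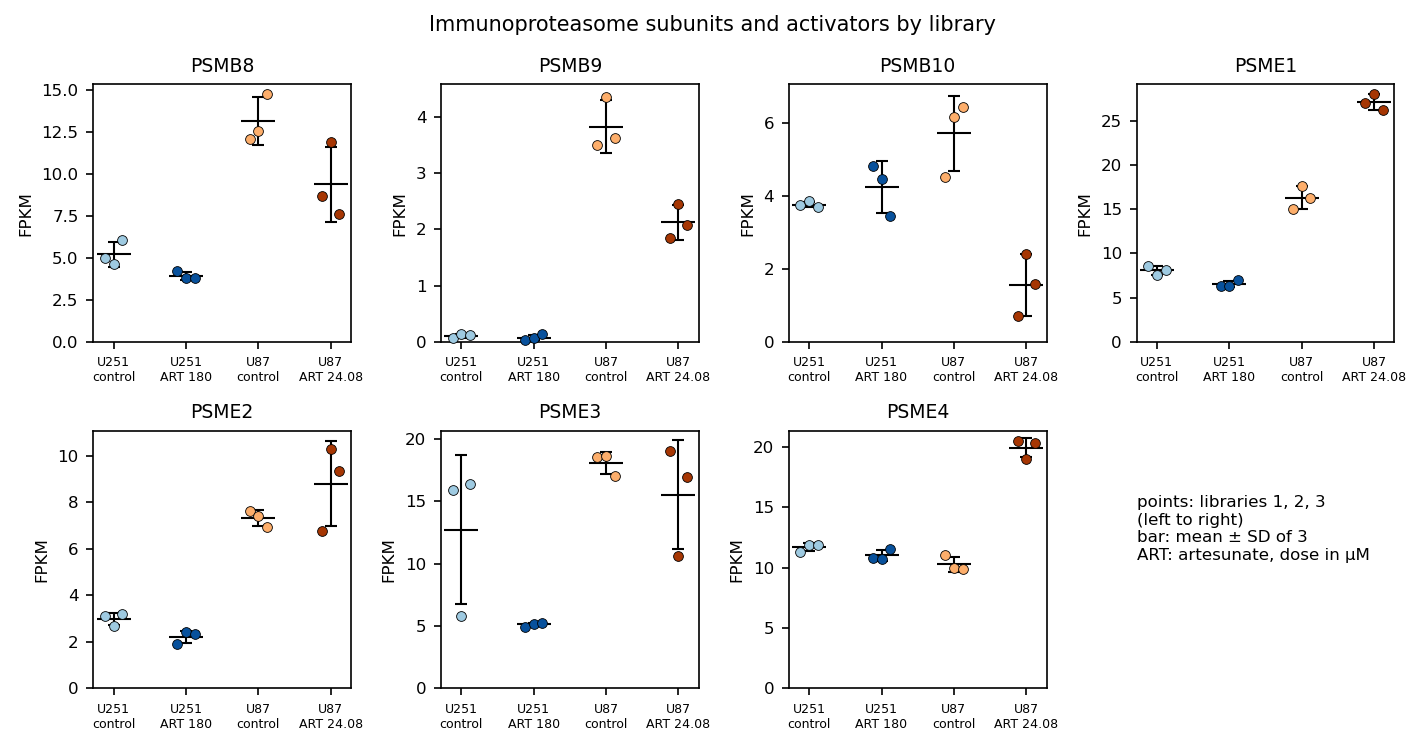
FPKM of the immunoproteasome subunits PSMB8 to PSMB10 and the activators PSME1 to PSME4 in each library (points), with the mean and SD of 3 libraries (bars), by line and treatment (ART, artesunate, dose in µM). PSMB9 lies between 0.0337 and 0.133 FPKM in all 6 U251 libraries and at 1.84 or more in all U87 libraries, and PSME4 lies at 19 to 20.5 in U87 with artesunate and at 9.85 to 11.9 elsewhere.

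The first comparison asked how the lines differed in control medium. Of the 3 tested immunoproteasome subunits PSMB8 and PSMB9 were lower in U251 than in U87, as were both chains of the PA28 alpha-beta activator, while 4 subunits of the 19S particle were higher and 2 lower. Of the 47 members, 9 were higher and 15 lower in U251 (edgeR, adjusted p under 0.05), and 64.8% of all 17150 genes tested were called (32.5% higher, 32.3% lower), so the members' share of 51.1% lay below the background. In bulk RNA, fewer cells with a transcript and less of it per cell cannot be told apart. The members' median log2 fold change was -0.13 (all genes 0). In FPKM, 33 members did not overlap between the control groups, with 73.5% of all genes not overlapping.

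PSMB9, the immunoproteasome subunit that replaces PSMB6, showed the largest contrast. It stood at 0.0639, 0.132 and 0.121 FPKM in the U251 controls and at 3.5, 4.36 and 3.62 in the U87 controls. These groups were far apart, and the U251 values rested on 4, 9 and 8 counts. Summed over libraries and scaled to depth, 785 counts in U87 against 21 in U251 gave a ratio of 35.8 (95% interval 23.3 to 58.2, exact binomial, counting error only; log2 fold change -5.12 ± 0.31, SE, adjusted p = 4.2e-08 in edgeR). On the log2(FPKM + 1) scale, which understates changes of low genes, the difference was -2.12. PSMB9 lies in the MHC class II region (chr6:32844136-32859585, GRCh38) and its annotated span overlaps TAP1, PSMB8 and the antisense RNA PSMB8-AS1. Whether counting used strand is not given in the sources used here. TAP1, the peptide transporter on the opposite strand, was also lower in U251 (log2 fold change -0.67, adjusted p = 0.00047).

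PSMB8, which replaces PSMB5, was measured at 4.98, 4.62 and 6.06 FPKM in the U251 controls and 12.1, 12.6 and 14.8 in the U87 controls. All U251 values lay below all U87 values, with a log2 fold change of -1.31 ± 0.16 (adjusted p = 1.9e-05). For PSMB10, which replaces PSMB7, the corresponding values were 3.74, 3.85 and 3.7 against 4.53, 6.17 and 6.45. Here too the groups did not overlap, but the difference of -0.58 ± 0.30 was not called (adjusted p = 0.11; -0.01 with a correction for transcript GC content and length). It was called when only these 6 libraries were fitted (0.0095) or when U87 artesunate library 1 (0.019) or 2 (0.046) was left out. As a share of its constitutive counterpart, PSMB9 over PSMB6 was 0.0038 ± 0.00142 in U251 controls and 0.121 ± 0.00628 in U87 controls (SD, n = 3; exact permutation test, two-sided, p = 0.1, the smallest that 3 against 3 libraries can give). PSMB8 over PSMB5 was 0.327 ± 0.015 against 0.466 ± 0.0313, with the same p of 0.1 in the exact test. PSMB10 over PSMB7 had the other order, 0.0645 ± 0.00702 in U251 and 0.0536 ± 0.00811 in U87 (SD, n = 3; exact permutation test, two-sided, p = 0.2).

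**Figure D2:**
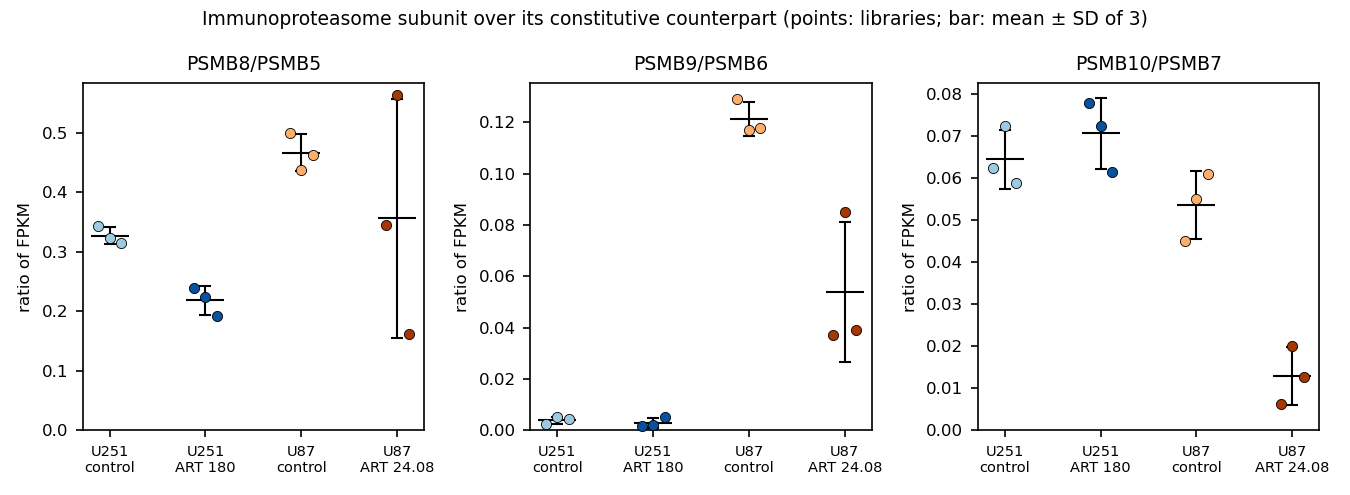
Ratio of FPKM of each immunoproteasome subunit to the constitutive subunit it replaces, in each library (points) with the mean and SD of 3 (bars), by line and treatment. PSMB9/PSMB6 lies near 0 in U251 (0.00138 to 0.00512) and at 0.117 to 0.129 in U87 controls; PSMB10/PSMB7 lies at 0.0449 to 0.0609 in U87 controls and at 0.00621 to 0.02 with artesunate.

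Both chains of the interferon-inducible cap were lower in U251. PSME1 stood at 8.53, 7.56 and 8.11 FPKM in U251 controls and 15, 17.6 and 16.3 in U87 controls. PSME2 stood at 3.11, 2.68 and 3.18 against 7.61, 7.42 and 6.94. Neither gene overlapped between the lines, with log2 fold changes of -0.99 ± 0.09 (adjusted p = 1e-06) and -1.27 ± 0.14 (8.2e-06); with that correction PSME1 was at -0.55 (4.1e-05). PSME3 was at -0.48 ± 0.32 (0.2). PSME4 was slightly higher in U251 (0.21 ± 0.07, 0.025), a call that turned to -0.27 (0.00035) with the correction and was lost without U251 control library 2 or 3 or U87 control library 2 or 3 (adjusted p 0.076, 0.065, 0.079 and 0.12) or with no filter (0.11). HLA-B, an MHC class I heavy chain, was much lower in U251 (log2 fold change -3.81 ± 0.09), and 8 of 12 tested genes of the interferon and peptide-loading list were lower and 2 higher.

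Among constitutive subunits, PSMB7, the trypsin-like catalytic subunit, had the largest fitted line difference in the core, though not with the correction. It was measured at 60.0, 53.2 and 62.8 FPKM in U251 controls and at 101, 112 and 106 in U87 controls. The groups were well separated (log2 fold change -0.83 ± 0.09, adjusted p = 4.9e-06, and -0.53 with the correction). PSMA6, an alpha-ring subunit, was also lower in U251 (-0.77 ± 0.17; -1.38 with the correction), and PSMA4, another, was higher (0.46 ± 0.13, but 0.05 and not called with the correction).

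In the 19S particle the ATPase PSMC2 was higher in U251, at 46.4, 45.7 and 44.3 FPKM against 28.6, 28.5 and 28.4. Its libraries differed little within a line, and the log2 fold change was 0.70 ± 0.09 (adjusted p = 2.2e-05; 0.27 and 0.0054 with the correction). The lid subunit PSMD11 was higher too (0.53 ± 0.07). Of the assembly factors, PSMD10 (gankyrin, a chaperone of the 19S base) was higher (0.69 ± 0.10) and PSMD9, another base chaperone, lower (-0.69 ± 0.13).

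The second comparison asked what 180 µM artesunate changed in U251. Few members moved: 3 of 47 fell and 0 rose (edgeR), 6.38% called against a background of 8.34% of all genes called (4.09% higher, 4.26% lower). The fallers were PSME3, PSMG2 and PSMD5; PSMD5 was named after its value was seen. The members' median log2 fold change was -0.08 (all genes 0). In FPKM, 23 members did not overlap (37.6% of all genes): 21 members had every artesunate library below every control and 2 had every one above. Over all genes tested, 21.0% lay wholly below and 16.7% wholly above. The number called ran from 0, without U251 artesunate library 1, to 6, with total-count scaling, with DESeq2 or with only the 6 U251 libraries.

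PSME3, the nuclear PA28 gamma activator (chr17:42824385-42843758), had the largest fitted change, and 1 control library decided its spread. Its values were 15.9, 5.82 and 16.4 FPKM in the controls and 4.95, 5.19 and 5.22 with artesunate. Control library 2 thus lay next to the treated libraries and far from the other controls. The log2 fold change was -1.27 ± 0.33 (adjusted p = 0.036). The call was lost in the FPKM fits (0.055 to 0.13) and when any of 7 libraries was left out: U251 control library 1 or 3 (0.11 and 0.13), any U251 artesunate library (0.11, 0.11 and 0.089), or U87 control library 2 or 3 (0.05 and 0.053). BECN1, an autophagy gene whose span overlaps PSME3 on the other strand, was at 4.52, 5.0 and 4.18 in the controls and 3.98, 4.28 and 3.62 with artesunate.

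PSMG2, a chaperone that pairs with PSMG1 in building the alpha ring, was at 8.32, 8.08 and 8.74 FPKM in U251 controls and 6.33, 6.31 and 6.01 with artesunate. PSMD5, a chaperone of the 19S base, was at 11.4, 11 and 11.3 against 7.68, 8.81 and 8.86. Neither gene overlapped between groups, and the changes were small: -0.40 ± 0.11 (adjusted p = 0.044) and -0.37 ± 0.08 (0.012). PSMG2 lost its call without any one of the 6 U251 libraries (0.083 to 0.12) or without U87 control library 2 or 3 (0.053 and 0.052), and with no filter on low counts (0.12). PSMD5 lost it with no filter (0.063), without U251 control library 1 (0.053), without U251 artesunate library 1 (0.058) and with the GC and length correction (-0.21, 0.11).

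The interferon-inducible members did not pass the test in U251. PSME1 was measured at 6.32, 6.3 and 6.97 FPKM with artesunate and PSME2 at 1.91, 2.42 and 2.32, all below their controls; the log2 fold changes were -0.27 ± 0.09 (adjusted p = 0.081) and -0.39 ± 0.14 (0.12). PSME1 passed with the GC and length correction (-0.32, 0.023) with total-count scaling (-0.30, 0.049), with DESeq2 (0.05) and in the filtered FPKM fits (0.034 and 0.033). PSMB8 was at 4.22, 3.82 and 3.79 FPKM, also below its controls (-0.37 ± 0.16, 0.2). Its ratio to PSMB5 was 0.327 ± 0.015 in controls and 0.218 ± 0.0238 with artesunate (SD, n = 3; exact permutation test, two-sided, p = 0.1, the smallest possible). PSMB10 was at 4.83, 4.46 and 3.44 (0.21 ± 0.30, 0.74) and PSME4 at 10.8, 10.7 and 11.5 (-0.06 ± 0.07, 0.71). PSMB9 had 15 counts in the 3 artesunate libraries against 21 in the controls. The ratio of control to artesunate was 1.39 (95% interval 0.682 to 2.89, counting error only). A change inside that interval was not detectable at this depth.

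**Figure D3:**
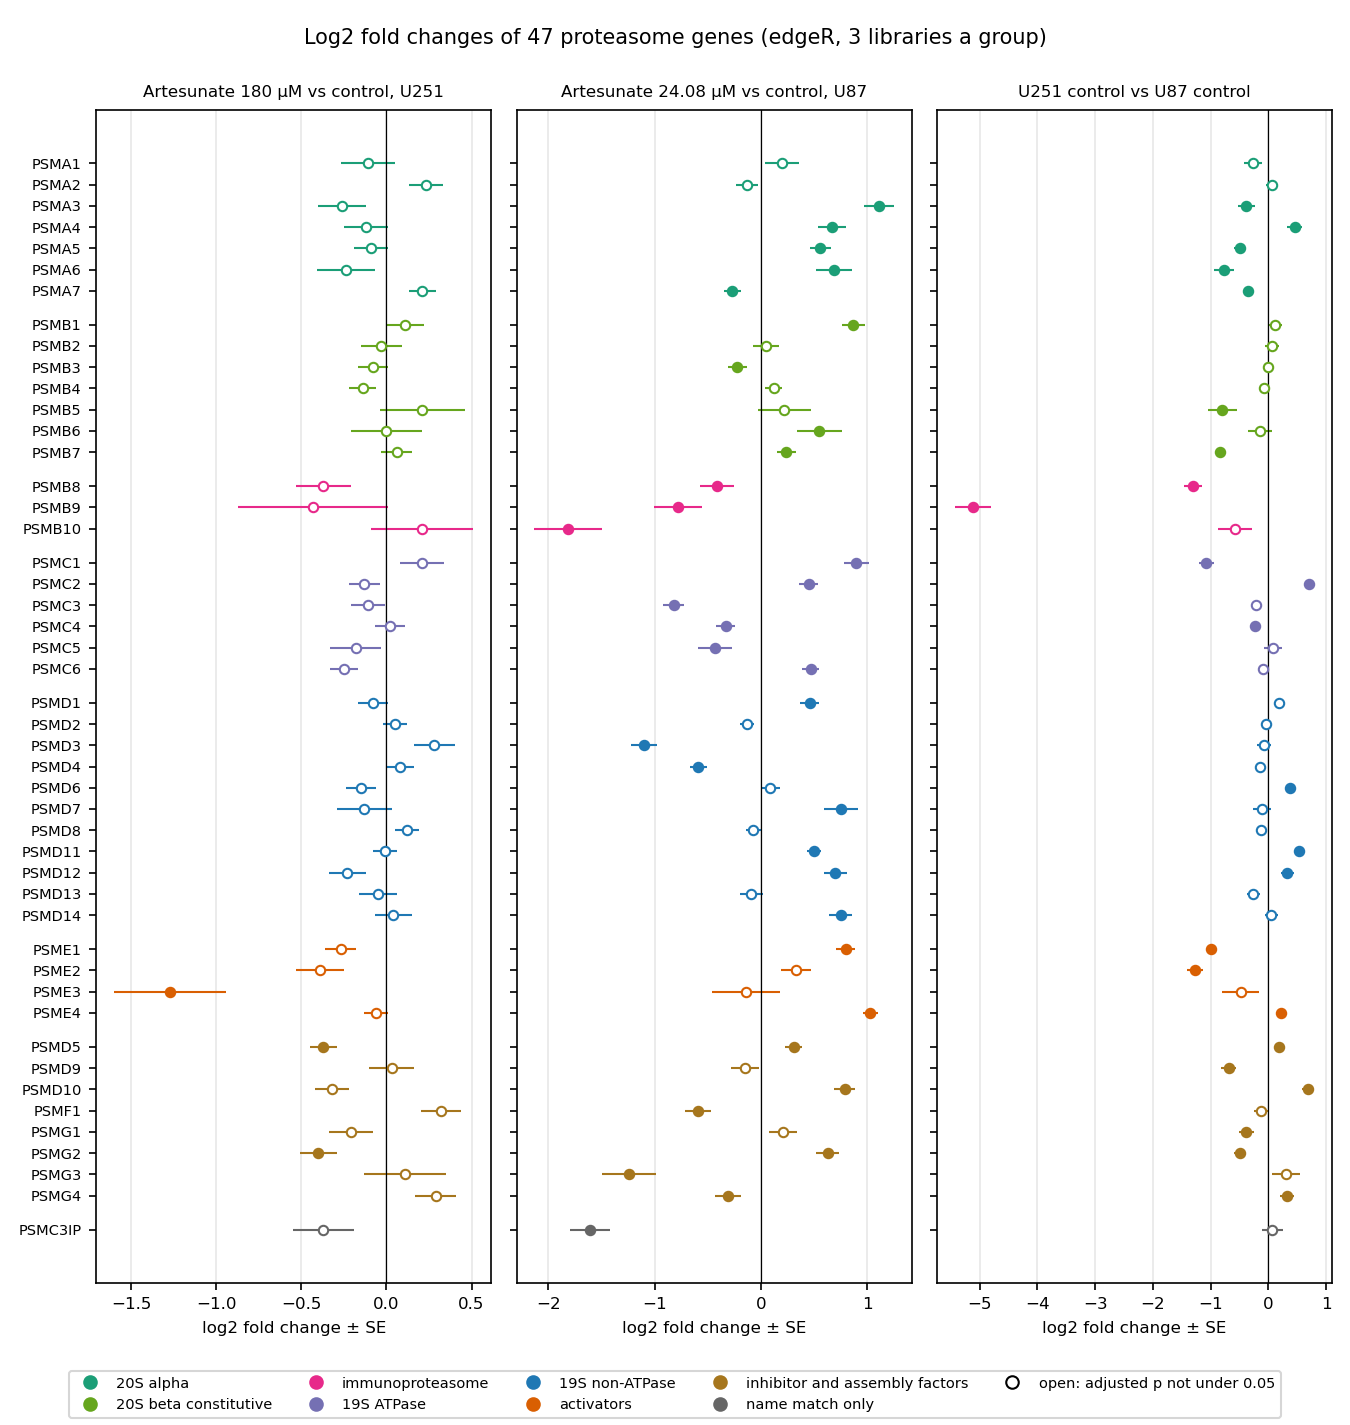
Log2 fold change (points) with its standard error (lines) of the 47 tested members, grouped by class, for artesunate against control in U251 and in U87 and for U251 against U87 controls; filled points have an adjusted p under 0.05 and each panel has its own scale. U251 has 3 filled points, all below 0; U87 has 20 above and 14 below 0, with all 3 immunoproteasome subunits below.

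The third comparison asked what 24.08 µM artesunate changed in U87. Many members moved, and they moved apart: 20 rose and 14 fell (edgeR), 72.3% called, with 58.3% of all genes called (29.2% higher and 29.2% lower). The members' median log2 fold change was 0.20 (all genes 0), and 37 members did not overlap in FPKM (62.5% of all genes). Of the alpha-ring subunits 4 rose and 1 fell, of the constitutive beta subunits 3 rose and 1 fell, 2 activators rose, 3 immunoproteasome subunits fell, and the 19S particle split into 8 up and 5 down. Transcript GC content moved with these changes. Over the 47 members its Pearson correlation with the log2 fold change was -0.62 (Spearman -0.6), and over 17089 genes -0.58 (-0.63). The points share libraries, and genes are not independent replicates. Median GC was 41.5% in the members that rose, 53.4% in those that fell and 48.8% in the rest. With a per-library correction for GC and length, 12 members were higher and 14 lower, with 45.6% of all genes called (19.7% higher, 25.9% lower). Of the 20 that rose, 9 were again higher, 2 (PSMC2 and PSMD5) turned lower and 9 were not called; of the 14 that fell, 9 were again lower and 5 were not called. Corrected values are therefore given beside the fitted ones; the part of GC content in the changes was not tested otherwise.

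**Figure D4:**
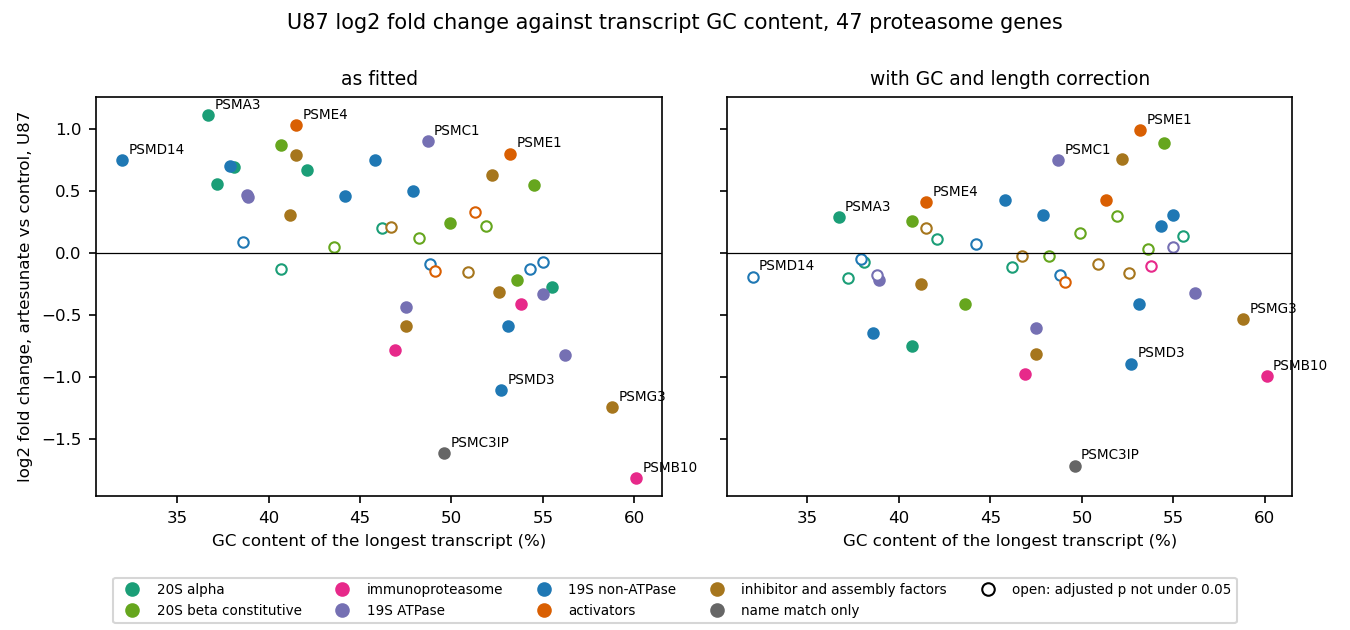
Log2 fold change of artesunate against control in U87 plotted against the GC content (%) of each member's longest transcript, as fitted and with the GC and length correction; points are the 47 tested genes, coloured by class and filled where adjusted p is under 0.05. As fitted the points slope down (Pearson -0.62); with the correction PSMD14 moves from 0.75 to -0.19, while PSME1 (0.99) stays above 0 and PSMB10 (-0.99) and PSMD3 (-0.89) below.

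U87 artesunate library 2 stood nearest to the controls: of the 34 called members, 22 had their smallest change in it, with a median change of 0.45 on the log2(FPKM + 1) scale against 0.69 and 0.61 in libraries 1 and 3. Without it, 21 members rose and 12 fell.

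All 3 measured immunoproteasome subunits fell in U87. PSMB10 (chr16:67934502-67937087), whose promoter is printed above with its interferon-stimulated response element, was at 4.53, 6.17 and 6.45 FPKM in controls and 0.697, 2.4 and 1.58 with artesunate. Every treated library was far below every control. Its counts were 259, 332 and 331 against 33, 108 and 84, and the log2 fold change was -1.81 ± 0.32 (adjusted p = 0.00042). With the GC and length correction it was -0.99 (0.0069); PSMB10 has the highest transcript GC content of the members tested, 60.1%.

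PSMB9 fell from 3.5, 4.36 and 3.62 FPKM to 1.84, 2.46 and 2.08. The groups did not overlap (log2 fold change -0.78 ± 0.23, adjusted p = 0.012, and -0.97, 0.0057 with the correction), though the call was lost without U87 control library 2 (0.057). PSMB8 went from 12.1, 12.6 and 14.8 to 8.72, 11.9 and 7.6, with library 2 close to the lowest control. Its change of -0.41 ± 0.16 (0.041) was at -0.10 (0.6) with the correction and lost its call without U251 artesunate library 2, without U87 control library 2 or 3, or without U87 artesunate library 1 or 3 (0.052 to 0.14), and with only the compared libraries (0.072). Relative to the constitutive subunits, PSMB10 over PSMB7 was 0.0536 ± 0.00811 in controls and 0.0129 ± 0.00691 with artesunate, and PSMB9 over PSMB6 was 0.121 ± 0.00628 and 0.0537 ± 0.0273 (SD, n = 3; exact permutation test, two-sided, p = 0.1 for each, the smallest possible). PSMB8 over PSMB5 overlapped between the groups (exact p = 0.5).

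Of the 4 activators 2 rose in U87 and none fell. PSME1 (chr14:24136158-24138967) was at 15, 17.6 and 16.3 FPKM in controls and 27, 28 and 26.2 with artesunate. PSME4 (chr2:53864067-53970840) was at 11, 9.96 and 9.85 against 20.5, 19 and 20.3. Both genes were tight within groups and clearly apart between them, with log2 fold changes of 0.80 ± 0.09 (adjusted p = 1e-05) and 1.03 ± 0.07 (6.8e-07). The correction left PSME1 at 0.99 (1.1e-06) and PSME4 at 0.41 (3.2e-05).

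The other activators did not pass the test. PSME2, which forms a ring with PSME1, was at 7.61, 7.42 and 6.94 FPKM in controls and 6.77, 10.3 and 9.36 with artesunate. Library 1 lay below all controls and the others above them (0.33 ± 0.14, adjusted p = 0.055); it passed with the correction (0.43, 0.025) and without U87 artesunate library 1 (0.48, 0.0046). PSME3 was at 18.5, 18.6 and 17 against 19, 10.6 and 16.9, overlapping, with library 2 low (-0.14 ± 0.32, 0.74, and 0.08 without that library).

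In the alpha ring 4 of 7 tested subunits rose and 1 fell. PSMA3 (chr14:58244831-58272012) went from 18.2, 19.2 and 15.8 FPKM to 42.8, 28.7 and 37.4. All treated libraries exceeded all controls, with library 2 the lowest of them; the log2 fold change of 1.11 ± 0.14 (adjusted p = 3.6e-05) was 0.29 (0.046) with the correction. PSMA4 (0.67), PSMA5 (0.56) and PSMA6 (0.69) also rose, and with the correction none of these was called (0.11, -0.20 and -0.07). PSMA7, the most abundant alpha transcript, fell from 128, 142 and 138 FPKM to 103, 106 and 112. The groups did not overlap, but the change was small (-0.27 ± 0.08, 0.013) and was 0.14 (0.11) with the correction.

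Of the 7 constitutive beta subunits 3 rose and 1 fell. PSMB1, a structural beta-ring subunit, rose from 61.8, 62.9 and 66.7 FPKM to 119, 92.2 and 121. The groups were apart, with library 2 again the lowest treated one (log2 fold change 0.87 ± 0.11, adjusted p = 3.7e-05; 0.26 and 0.017 with the correction). The catalytic subunits PSMB6 (0.55 ± 0.21, 0.042) and PSMB7 (0.24 ± 0.09, 0.034) rose less. PSMB6 was at 0.89 (0.0056) with the correction and PSMB7 at 0.16 (0.12). PSMB5, the chymotrypsin-like subunit, was at 24.2, 29 and 31.9 in controls and 25.3, 21.2 and 47.4 with artesunate, so that library 3 lay far above the others and no change was called (0.22 ± 0.25). PSMB3 fell by 0.22 ± 0.09 (0.047), a call that was lost without any one of 8 libraries (0.057 to 0.21), with no filter (0.051) and with only the compared libraries (0.092), and was 0.03 with the correction.

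The 6 ATPases of the 19S base all changed, 3 up and 3 down. PSMC3 (chr11:47418769-47426473), which helps dock the base onto the core, went from 45.9, 52 and 48.5 FPKM to 25.6, 29.7 and 24. The groups were well apart (-0.82 ± 0.10, adjusted p = 3.3e-05; -0.32 and 0.0056 with the correction). PSMC4 (-0.33) and PSMC5 (-0.43) fell too, and PSMC2 (0.45) and PSMC6 (0.47) rose. With the correction PSMC5 was at -0.60 and PSMC2 at -0.22, both called, and PSMC4 (0.05) and PSMC6 (-0.18) were not.

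PSMC1 had the largest fitted rise of the ATPases, and the rise was smaller when counts of a pseudogene were added. PSMC1 was at 7.1, 7.08 and 8.14 FPKM in U87 controls and 14.7, 10.6 and 14.1 with artesunate, without overlap. Its log2 fold change was 0.90 ± 0.12 (adjusted p = 6.6e-05), and 0.75 (8.2e-05) with the correction. Its processed pseudogene PSMC1P1 (chr3:68635705-68637024), a near copy of the spliced transcript, held 26929 counts over the 12 libraries against 10565 at PSMC1. In U87 the pseudogene counts were 3439, 3393 and 3099 in controls and 2174, 2647 and 2782 with artesunate, lower in every treated library, though not called (-0.16, 0.13). When the counts of both were summed, an alternative added after these counts were seen, the U87 change was 0.17 ± 0.06 (0.042) and the difference between the lines' effects was -0.04 (0.73) in place of -0.69 (0.0062). Between the control groups the sum gave -1.03 ± 0.06 against -1.08 for PSMC1 alone. Whether reads of PSMC1 were assigned to the pseudogene, or the reverse, was not tested. All 31 processed pseudogene rows of the family held 28031 counts, 2.38% of the members' 1178557, and PSMC1P1 held nearly all of them.

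Among the 11 other 19S subunits 5 rose and 2 fell. PSMD3 (chr17:39980797-39997960), a lid scaffold subunit, fell from 35.6, 39.4 and 34.1 FPKM to 14.8, 17.6 and 16. The drop was large against the spread in both groups, at -1.10 ± 0.12 (adjusted p = 1.1e-05) and -0.89 (3e-05) with the correction. PSMD4, a ubiquitin receptor, fell from 19.4, 21 and 20.4 to 11.2, 14 and 13.2, again without overlap (-0.59 ± 0.08; -0.41 and 0.00032 with the correction). PSMD7, the lid partner of the deubiquitinase PSMD14, rose from 22.1, 17.6 and 28.6 to 39.4, 30.5 and 39.2. Its groups did not overlap although the controls were spread (0.75 ± 0.16, 0.0014; 0.43 and 0.017 with the correction). PSMD14 itself rose by 0.75 ± 0.11 as fitted and was at -0.19 (0.22) with the correction, and it has the lowest GC content of the members, 32.0%. PSMD11 (0.50; 0.31 with the correction) also rose under both fits, whereas PSMD1 (0.46) and PSMD12 (0.70) were at 0.07 and -0.05 with the correction.

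Inhibitor and assembly factors split, with 3 up and 3 down of 8. PSMG3, a chaperone that works with PSMG4 on the alpha ring, fell from 8.74, 10.1 and 11.2 FPKM to 2.33, 6.02 and 3.87. The groups did not overlap, with library 2 nearest the controls (-1.24 ± 0.25, adjusted p = 0.0011; -0.53 and 0.035 with the correction). Its partner PSMG4 fell by 0.31 ± 0.12 (0.046; -0.16 and 0.3 with the correction). PSMG2 rose from 11.3, 11.7 and 13 to 19.2, 15.4 and 18.4, wholly above its controls (0.63 ± 0.11, 0.00029; 0.76 with the correction). PSMD10 rose from 10.5, 10.8 and 10.9 to 20.4, 16.5 and 16 (0.79 ± 0.10), also without overlap, and was at 0.20 (0.07) with the correction. PSMF1, the inhibitor PI31, fell by 0.59 ± 0.12 (0.0011; -0.81 with the correction).

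The fourth comparison asked whether artesunate acted differently on these genes in the lines, at their different doses. It uses the same libraries as the other comparisons, so its calls are no separate evidence for them. Of the 47 members 10 had a higher effect in U251 and 19 a lower one, 61.7% called, with 49.4% of all genes called (24.1% higher, 25.3% lower); with the GC and length correction 10 were higher and 9 lower (29.7% of all genes called, 17.5% higher and 12.2% lower). Among the members that interferon induces, PSMB10 differed by 2.02 ± 0.44 (U251 minus U87, adjusted p = 0.0024), PSME1 by -1.07 ± 0.12 (3.6e-05) and PSME2 by -0.73 ± 0.20 (0.0092). With the correction these were at 1.00 (0.047), -1.31 (7.6e-06) and -0.85 (0.0079); PSME2 was not called in the unfiltered FPKM fit (-0.53, 0.057). PSMB8 (0.04 ± 0.23, 0.93) and PSMB9 (0.35 ± 0.52, 0.63) were not called, and PSMB9 rests on few U251 counts. PSMD3 differed by 1.39 ± 0.17 (1.11 with the correction), PSMG2 by -1.03 ± 0.15 (-1.19) and PSME4 by -1.09 ± 0.10 (-0.37), all called under both fits. PSMA3 differed by -1.37 ± 0.20 and was at -0.28 (0.2) with the correction. PSME3 was at -1.14 ± 0.45 (0.056) and was called without U251 control library 2 (-1.48, 0.0013) or U87 artesunate library 2 (-1.36, 0.021), the libraries in which it was low.

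A list of 52 tested genes that act with the proteasome was read beside the members. In U87 29 rose and 10 fell (58.3% of all genes called), in U251 3 rose and 2 fell (8.34%), and between the controls 16 were higher and 15 lower in U251 (64.8%). Of 12 regulators of proteasome genes 9 rose and 1 fell in U87, where 29.2% of all genes rose and 29.2% fell. NFE2L1 was at 10.7, 9.63 and 9.99 FPKM in U87 controls and 13.5, 18.6 and 13.4 with artesunate, without overlap (0.66 ± 0.16, adjusted p = 0.0044; 1.03 with the correction). In U251 it was at 12.8, 14.6 and 11.9 against 12, 19 and 17.5, with overlap (0.33 ± 0.16, 0.24). NFE2L2, the related antioxidant factor NRF2, varied widely in U87: 1.76, 6.21 and 6.37 in controls and 9.25, 11.7 and 25.3 with artesunate (1.77 ± 0.44, 0.0045). POMP, the chaperone of 20S maturation, rose in U87 from 36.1, 40.4 and 42.6 to 96.4, 65.9 and 70.3 (1.04 ± 0.15), wholly above its controls, but was at 0.16 (0.38) with the correction.

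ZFAND5, which binds and stimulates the proteasome, rose in U87 from 15, 13.2 and 13 FPKM to 36.3, 33.7 and 35.4. It was far above its controls in each library (1.43 ± 0.08, adjusted p = 1e-07; 0.74 with the correction), and in U251 it was at 0.07 ± 0.08 (0.64). SQSTM1, the autophagy receptor p62, rose in both lines, by 0.90 ± 0.18 (0.0096) in U251 and 1.25 ± 0.18 (8.9e-05) in U87. NLRC5, the transactivator of MHC class I and immunoproteasome genes, fell in U87 from 1.86, 2.14 and 2.2 to 0.505, 1.15 and 0.633, with no overlap (-1.37 ± 0.23, 0.00032; -0.76 and 0.0043 with the correction). RPS27A, which encodes ubiquitin fused to a ribosomal protein, rose in U87 (0.72 ± 0.14; 0.23 and 0.099 with the correction).

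RefSeq gave a promoter for 43 of the 49 members. Both strands were searched for 7 motifs, and shares are given beside those over 27305 promoters of the same 300 bases. The antioxidant response element (TGACNNNGC) stood in 13 members (30.2%, all promoters 13.6%), the interferon-stimulated response element (GAAA, any 2 bases, GAAA) in 6 (14%, 3.65%), the gamma-activated site (TTCNNNGAA) in 5 (11.6%, 7.88%) and the CCAAT box in 20 (46.5%, 35.7%). The ETS site (CGGAAG) stood in 23 (53.5%, 19.9%), the nuclear respiratory factor 1 site (GCGC, any 2 bases, GCGC) in 7 (16.3%, 8.78%) and the ATF4 element (TGATGNAAN) in 1 (2.33%, 3.67%). Motif letters can overlap one another. The interferon-stimulated element was in the promoters of PSMB10, PSME1 and PSME2, printed above, and in those of PSMA4, PSMB4 and PSMG4. Members with an antioxidant element included 6 of the 17 that rose in U87, 4 of the 11 that fell and 3 of the 13 not called. A match describes letters in this window, and binding was not tested.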

How the data were processed

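RNA of 12 libraries was measured as counts and FPKM in 1 table. Per the series text and the submitters' processing notes, the authors used fastp, HISAT2 2.1.0, GRCh38 with Ensembl release 91, StringTie 1.3.3b and edgeR 3.30.3. The deposited counts are whole numbers, not normalized per the file headers; the step that made them and their strandedness are not given in the sources used here. The authors computed the deposited FPKM after TMM normalization, per the file headers. The authors' fold changes and p-values were not used. Members and lists were chosen with earlier results of these data known.

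Counts were fitted in R 4.3.3 with edgeR 4.0.16 (quasi-likelihood, TMM, filterByExpr with a minimum count of 10 and a total of 15, leaving 17150 of 35237 genes with a count), with 1 mean for each of 4 groups over all 12 libraries and Benjamini-Hochberg adjustment over all genes; a call is an adjusted p under 0.05. The standard error is the absolute log2 fold change over the root of F. FPKM means and SDs are over 3 libraries. The GC and length correction fits splines of 5 degrees of freedom per library, using the longest GENCODE 29 transcript; all 49 members were found there at the same position. Alternatives used limma 3.58.1 on log2(FPKM + 1) or (FPKM + 0.1), DESeq2 1.42.0, other scalings and left-out libraries. The script was tested on simulated data. Named members were the largest called change per class, direction and comparison, with PSMB8 to PSMB10 and PSME1 to PSME4 throughout; others were named after their values were seen. Companion genes were NFE2L1, NFE2L2, POMP and the largest called per subgroup; others were named likewise, and some genes that the rule names are not reported here. Depth limits precision: 3 counts were 0.1733 to 0.2201 CPM.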

Additional observations from a re-analysis of the deposited data

Results flagged for a closer look

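The effect of artesunate differed between the lines by the edgeR interaction test (U251 minus U87, log2) for 13 named members. Line and dose cannot be told apart, and 49.4% of all genes were called. Apart from PSMB10, PSME1, PSME2 and PSME4, the 13 were named as the largest called change of their class and direction here. Their call was therefore fixed by that choice. Other members, such as PSMG2 (-1.03), were called but are outside the 13. The value was positive for PSMB10 (2.02), PSMD3 (1.39), PSMG3 (1.35), PSMC3 (0.70) and PSMA7 (0.48). It was negative for PSMA3 (-1.37), PSMD10 (-1.11), PSME4 (-1.09), PSME1 (-1.07), PSMD12 (-0.93), PSMB1 (-0.76), PSME2 (-0.73) and PSMC6 (-0.72). With the GC and length correction 8 of these lost their call: PSMA3 (-0.28, adjusted p = 0.2), PSMD10 (-0.33, 0.051), PSMG3 (0.47, 0.2) and PSMC3 (0.10, 0.57) with the same direction, and PSMA7 (-0.03), PSMB1 (0.04), PSMC6 (0.15) and PSMD12 (0.03) with the other.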

How the results depend on the processing

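Over 98 results and 2228 alternative values, 2028 had the same direction and side of the threshold. The U251 count of 3 called members was 6 with total counts, with DESeq2 and with only the compared libraries, 1 without a filter, 5 with the GC and length correction, 5 with each FPKM fit using the filter, and 0 to 5 with single libraries left out. Counts with single libraries left out were 29 to 33 in U87, 28 to 34 for the difference and 17 to 27 between controls. The difference's count of 29 fell to 19 with the GC and length correction and 15 with replicate block and correction. The cause of these moves was not tested.

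Among the results that the naming rule selected, directions turned with the correction, with and without the block, as follows. In U251 PSME4 was at 0.04. In U87 PSMA7 was at 0.14, PSMB3 at 0.03 and ADRM1 at 0.32. For the difference PSMB8 was at -0.34, POMP at 0.37, PSMC6 at 0.15, PSMD12 at 0.03 (0.02 with the block), PSMA7 at -0.03, PSMB1 at 0.04 (0.05) and ADRM1 at -0.19 (-0.18). Between controls PSME4 was at -0.27, ADRM1 at 0.02, UBA6 at -0.17 and UBA1 at 0.03. Results outside the rule turned too with the correction and are not all listed here. In U87 PSMC2 went from 0.45 to -0.22 and PSMD5 from 0.31 to -0.25. Between controls PSMD12 went from 0.33 to -0.27. Without single libraries PSME3 in U87 was at 0.08, and the difference ranged from -0.06 to 0.23 for PSMB8 and from -0.32 to 0.66 for PSMB9.

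Same-numbered libraries deviated together little (r of 0.041, 0 and 0.038 in U251, 0.053, 0.05 and -0.009 in U87). Differently numbered ones ran from -0.056 to 0.019 in U251 and from -0.085 to 0.044 in U87. All these values are small and cannot decide whether the numbers pair the libraries. With the replicate block 2, 28, 29 and 21 members were called in U251, in U87, for the difference and between controls. Among the members named, the block ended the calls of PSMG2 in U251 (adjusted p = 0.062) and of PSMB8 (0.064) and PSMB3 (0.053) in U87; block and correction together ended those of PSMA3 in U87 (0.058) and PSMB10 for the difference (0.053), which the correction alone had not. The difference could not be fitted from the compared libraries alone, since it uses all 12. At this depth a PSMB9 change in U251 inside its counting interval (0.682 to 2.89, control over artesunate) is not detectable.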

Other observations

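PSMC3IP, matched by symbol only, fell in U87 from 2.61, 3.5 and 2.77 FPKM to 1.05, 0.684 and 1.01, without overlap (log2 fold change -1.61 ± 0.19, edgeR adjusted p = 2e-05; -1.71 with the GC and length correction). In U251 it was at 3.38, 2.85 and 2.92 in controls and 2.14, 2.45 and 2.32 with artesunate (-0.37 ± 0.18, 0.24). NFE2L3, a relative of NFE2L1, was at 8.38, 9.4 and 9.11 FPKM in U251 controls and 0.157, 0.128 and 0.237 in U87 controls (5.71 ± 0.19, 3.6e-10), and rose in U87 to 0.346, 0.47 and 0.497 (1.41 ± 0.21, 0.00012).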
